A study of Mus musculus with 7 samples.

Results

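Mammals carry alternative genes for several small subunits of cytochrome c oxidase, and 10 such genes were examined in sorted cells of the embryonic mouse bowel. They form 5 pairs of a tissue-specific and a ubiquitous isoform: Cox4i2 and Cox4i1, Cox6a2 and Cox6a1, Cox6b2 and Cox6b1, Cox7a1 and Cox7a2, and Cox8b and Cox8a. The members were taken by gene symbol from the 19938 genes that could be tested. A gene with several probe sets would have been represented by the one chosen by its mean level over the 7 arrays, but each of the 10 had exactly 1. The list itself was drawn up with earlier results of these arrays known, so the counts over its members are descriptions.

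Cytochrome c oxidase is the last enzyme of the mitochondrial respiratory chain. It passes electrons from cytochrome c to oxygen and pumps protons across the inner membrane. Mitochondrial DNA encodes its catalytic core, and nuclear genes encode the small subunits around it. Some of these have a form used in most tissues and a second form known from particular tissues. Cox6a2, Cox7a1 and Cox8b are known as the heart and skeletal muscle forms, and Cox7a1 and Cox8b are also expressed in brown fat. Cox4i2 is known from lung and from oxygen-sensitive regulation, and Cox6b2 from testis.

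RNA came from whole bowel at embryonic day 17.5 of mice that carried Wnt1-Cre together with R26R-EYFP. Wnt1-Cre acts in the neural crest and its reporter then marks the crest cells and their descendants with the yellow fluorescent protein EYFP. The YFP-positive group of 4 arrays holds enteric neural crest-derived cells (ENCDC), the source of enteric neurons and glia, and the YFP-negative group of 3 arrays holds the bowel cells without the marker, a mixture of many types from the same genotype. The comparison asks how gene expression in ENCDC differs from that of the rest of the bowel shortly before birth. Nothing in the labels ties the samples to different animals or litters, so a p-value here reflects the variation among these arrays alone, which may be technical.

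Levels are log2 values after RMA, the authors' normalization, which also sets the scale of a probe set, so that levels of different genes are not compared here. The median level over the tested genes was 5.87 to 5.92 on every array. The sort was checked against marker genes: all 6 measured neuronal and all 4 measured glial markers were higher in YFP-positive cells, and all 6 immune and all 6 fibroblast markers were lower. Of 7 epithelial markers 0 were higher and 0 were lower. YFP-positive arrays 3 and 4 stood apart from arrays 1 and 2, with a mean level of the smooth muscle markers of 8.93 and 9.31 against 7.72 and 8.38, and of the epithelial markers of 8.15 and 8.37 against 7.07 and 7.54. The epithelial mean of arrays 3 and 4 lay above that of all 3 YFP-negative arrays, 7.93 to 7.999.

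The promoter-proximal sequences of the pairs with the largest differences are shown first. In these pairs the tissue-specific form passed the test between the groups and the ubiquitous form did not. A link between the sequences and the levels was not tested. The 250 bases before the annotated gene start are from a table of RefSeq promoters on GRCm38.p6, in which 7 of the 10 genes were matched. They lie at chr7:140900447-140900696 for Cox8b, chr19:7217617-7217866 for Cox8a, chr7:4753095-4753344 for Cox6b2 and chr7:30626115-30626364 for Cox6b1, all read from the minus strand. Capitals mark the E-box form CAGCTG, and other E-boxes stay in lower case. They also mark the ETS core, which reads CCGGAAG, and the CCAAT box, each on either strand.
Cox8b: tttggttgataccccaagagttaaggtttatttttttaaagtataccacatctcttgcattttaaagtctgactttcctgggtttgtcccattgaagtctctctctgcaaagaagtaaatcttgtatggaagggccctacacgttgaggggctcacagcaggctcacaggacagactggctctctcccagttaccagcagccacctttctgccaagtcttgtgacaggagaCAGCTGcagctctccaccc
Cox8a: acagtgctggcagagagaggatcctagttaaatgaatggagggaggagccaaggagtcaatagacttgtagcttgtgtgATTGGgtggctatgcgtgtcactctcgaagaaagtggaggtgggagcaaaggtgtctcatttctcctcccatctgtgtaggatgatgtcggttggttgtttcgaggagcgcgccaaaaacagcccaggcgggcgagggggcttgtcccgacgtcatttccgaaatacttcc
Cox6b2: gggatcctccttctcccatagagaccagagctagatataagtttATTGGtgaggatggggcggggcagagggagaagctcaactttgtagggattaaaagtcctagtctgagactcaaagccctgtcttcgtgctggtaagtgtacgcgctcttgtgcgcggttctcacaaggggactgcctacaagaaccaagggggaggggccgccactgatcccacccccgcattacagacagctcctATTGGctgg
Cox6b1: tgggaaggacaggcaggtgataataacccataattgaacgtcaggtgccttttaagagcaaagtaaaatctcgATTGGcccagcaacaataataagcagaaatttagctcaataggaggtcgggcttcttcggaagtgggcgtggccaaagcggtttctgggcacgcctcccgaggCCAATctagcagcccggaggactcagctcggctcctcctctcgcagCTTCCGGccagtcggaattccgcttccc

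The windows differed in the dinucleotide CG, which Cox8b held 1 time and Cox8a 11 times, against a median of 6 over the 32851 promoter windows of the reference table. Cox6b2 held it 8 times and Cox6b1 14 times. CAGCTG, an E-box of the kind bound by muscle and other helix-loop-helix factors and a case of CANNTG, was in the window of Cox8b and in none of the other 6, while 13% of all windows had it. An E-box of any form, CANNTG, occurred 2 times in Cox6b1 and 1 time each in Cox7a1, Cox8b, Cox7a2 and Cox8a. It was in 66.2% of all windows. CCGGAAG, a core for ETS factors such as GABP, occurred in Cox6b1 and Cox6a1 and in 6.91% of all windows. GCGCANGC, a core of the NRF-1 motif, occurred in Cox6a1 only among the 7, with 3 matches of which 2 overlap each other, and in 8.30% of all windows. CCAAT occurred 2 times each in Cox6b2, Cox6b1 and Cox7a1 and 1 time each in Cox8a and Cox6a1, and 33.8% of all windows had it. TATAAA was in none of the 7 windows and in 12.4% of all. Both strands were searched, and a match describes the letters and not a bound site. The window of Cox7a2, unlike those of the other 6, lay inside the annotated span of its gene and not before it.

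Among the 10 isoform genes, Cox8b was higher and Cox6b2 was lower in YFP-positive cells, and the other 8 did not pass. Both genes that passed are tissue-specific forms. That is 1 member higher and 1 lower at a limma adjusted p under 0.05, where 8.39% of all tested genes were higher and 9.11% lower. In either direction the share was 20%, near the 17.5% of all genes, so the count is no result about the family. For 3 members, Cox8b, Cox6b2 and Cox8a, no YFP-positive array lay within the YFP-negative range, against 26.9% of all genes. The median log2 difference of the members was -0.11, beside 0.01 over all genes, and their median absolute log2 difference was 0.19, beside 0.14.

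**Figure D1:**
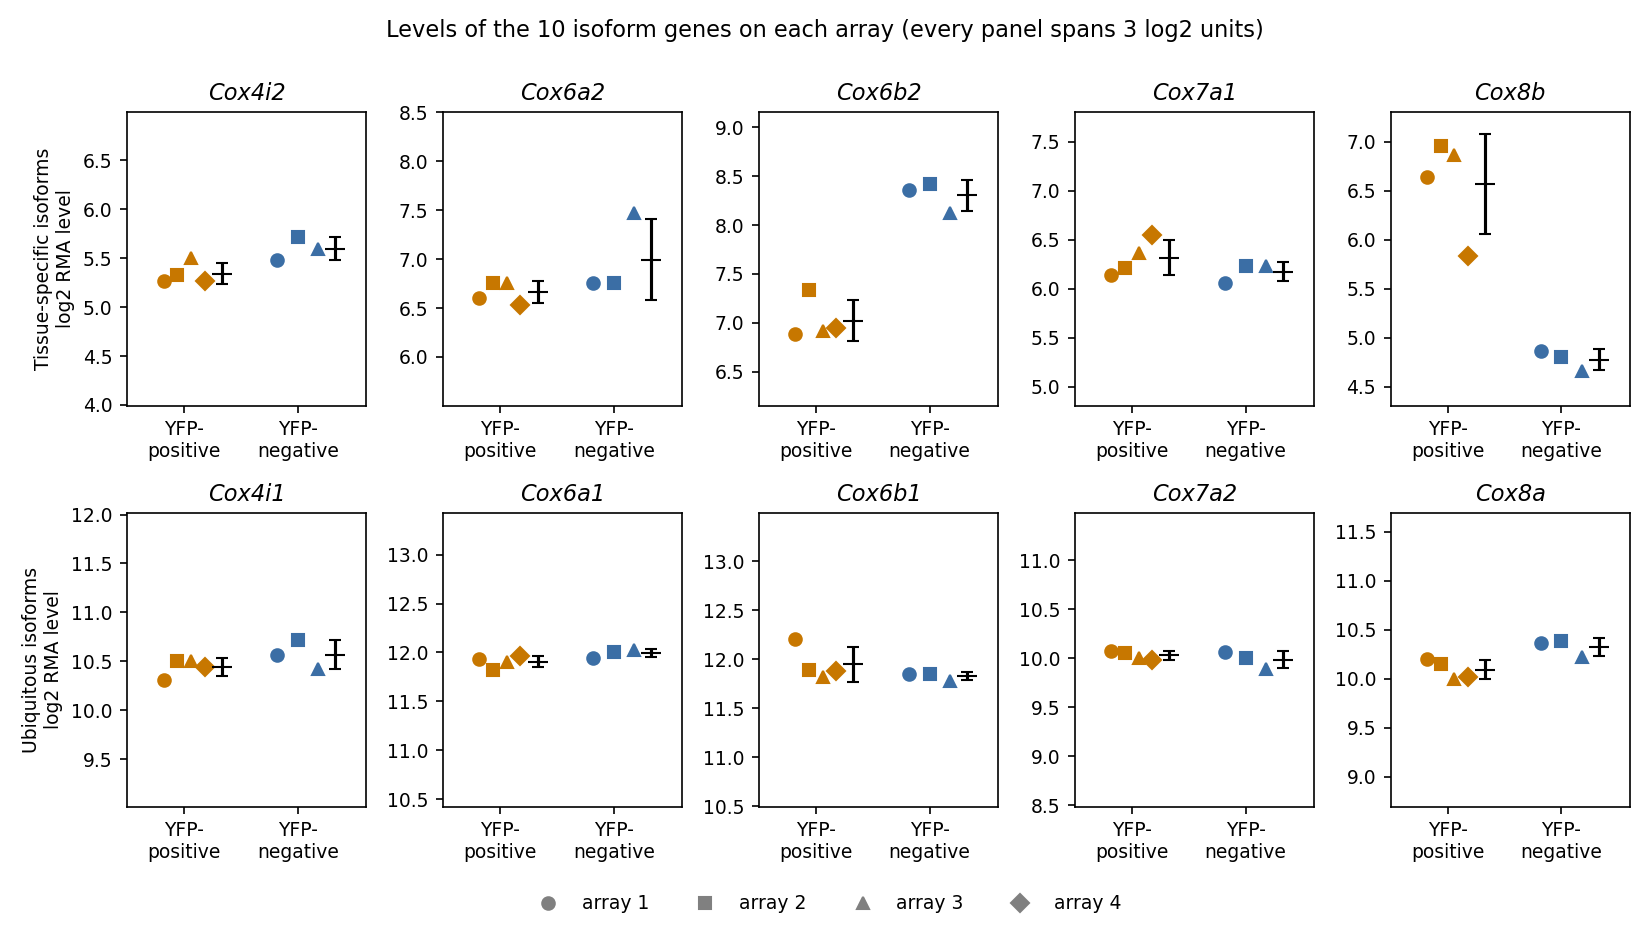
Log2 RMA level of each isoform gene on the 4 YFP-positive (left, orange) and 3 YFP-negative arrays (right, blue), 1 point an array, with the mean and SD in black. Cox8b lies at 5.83 to 6.95 in YFP-positive and 4.66 to 4.86 in YFP-negative cells, and Cox6b2 at 6.88 to 7.33 against 8.13 to 8.42.

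Cox8b encodes the muscle form of subunit 8, a small membrane-spanning subunit. Its log2 level was 6.64, 6.95, 6.87 and 5.83 on YFP-positive arrays 1 to 4, against 4.86, 4.80 and 4.66 on YFP-negative arrays 1 to 3. All 4 YFP-positive arrays lay above all 3 YFP-negative arrays, and array 4 was the lowest of its group. The YFP-negative values lay below the median level of those arrays, where a level can be largely background and the fold understated. The YFP-positive arrays averaged 6.57 ± 0.51 (SD, n = 4) and the YFP-negative arrays 4.77 ± 0.11 (SD, n = 3), so that Cox8b was 3.48-fold higher (log2 difference 1.80 ± 0.26 SE, 95% interval 1.17 to 2.42, limma adjusted p = 0.00376). Without YFP-positive array 4 the log2 difference was 2.04 ± 0.11 SE.

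Cox8a, the ubiquitous form of the same subunit, was slightly lower in YFP-positive cells without passing the test. Its log2 level was 10.20, 10.15, 9.996 and 10.02 on the YFP-positive arrays, against 10.36, 10.39 and 10.22 on the YFP-negative arrays. The groups did not overlap, by a margin that is small beside the spread within each group. The log2 difference was -0.23 ± 0.08 SE (95% interval -0.42 to -0.05, limma adjusted p = 0.0859).

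Cox8b was set beside the other muscle forms and beside genes of striated muscle and brown fat, the tissues in which it is best known. Of 10 measured striated muscle markers 1 was higher and 0 were lower in YFP-positive cells, with a mean level of the list of 5.68 to 6.03 in YFP-positive and 5.89 to 6.11 in YFP-negative cells. The 1 that passed was Myl1, a myosin light chain gene of fast skeletal muscle. Its log2 level was 6.82, 7.05, 6.82 and 6.47 on the YFP-positive arrays, against 4.62, 4.79 and 5.08 on the YFP-negative arrays (log2 difference 1.96 ± 0.16 SE, limma adjusted p = 0.000291). Like Cox8b, Myl1 was lowest on array 4 within the YFP-positive group and highest on array 2. The mean of the neuronal markers was also lowest on array 4, at 9.93, 9.82, 9.55 and 9.26 on YFP-positive arrays 1 to 4, but it was highest on array 1. That of the glial markers was lowest on array 3, at 9.45, 9.25, 8.93 and 8.97. The part of neuronal or glial RNA in the levels of Cox8b and Myl1 was not tested.

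The other 9 striated muscle markers did not pass. For Tnnt2, Ckm and Ttn all YFP-positive arrays lay below all YFP-negative arrays, as they did for 13.5% of all genes. The margin was narrow for Ckm and Ttn, whose highest YFP-positive values were 6.83 and 4.406 against lowest YFP-negative values of 6.89 and 4.414. Tnnt2, the cardiac troponin T gene, had a log2 difference of -1.18 ± 0.34 SE (limma adjusted p = 0.0586). It passed only with array medians set equal, after a second quantile normalization and with the dimmest genes left out (adjusted p of 0.0493, 0.0474 and 0.0379). It did not pass in the test against a 1.2-fold change (adjusted p = 0.140), nor when any single array was left out (adjusted p of up to 0.182). Actc1, the cardiac actin gene, had a difference of -0.98 ± 0.36 SE (limma adjusted p = 0.117). Of the alternative settings it passed only without YFP-positive arrays 3 and 4 (-1.46, adjusted p = 0.0490). Over YFP-positive arrays 1 to 4 the level rose from 6.44 to 7.67 for Tnnt2 and from 6.52 to 7.97 for Actc1. The mean of the smooth muscle markers also rose, from 7.72 to 9.31, and the part of smooth muscle RNA in these values was not tested. Ckm, the muscle creatine kinase gene, had a log2 difference of -0.46 ± 0.20 SE (limma adjusted p = 0.169), and the myogenic factor gene Myog had one of -0.02 ± 0.29 SE (limma adjusted p = 0.979). Of 4 brown fat markers 0 were higher and 1 was lower, with list means of 4.44 to 4.52 in YFP-positive and 4.59 to 4.66 in YFP-negative cells. Ucp1, the uncoupling protein gene that defines brown fat, stood at 3.81 to 3.91 in YFP-positive and 3.79 to 3.86 in YFP-negative cells. The part of any muscle or fat cell in the level of Cox8b was not tested. Between bulk samples, fewer cells of a type cannot be told apart from less RNA per cell.

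Cox6b2 encodes the testis form of subunit 6B, which sits on the side of the enzyme that binds cytochrome c. Its log2 level was 6.88, 7.33, 6.92 and 6.94 on YFP-positive arrays 1 to 4, against 8.36, 8.42 and 8.13 on the YFP-negative arrays. All YFP-positive arrays lay below all YFP-negative arrays, and array 2 stood above the rest of its group. The YFP-positive arrays averaged 7.02 ± 0.21 (SD, n = 4) and the YFP-negative arrays 8.30 ± 0.16 (SD, n = 3), so that Cox6b2 was 2.44-fold lower (log2 difference -1.28 ± 0.13 SE, 95% interval -1.60 to -0.97, limma adjusted p = 0.000780).

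Marker lists of several other cell types were lower together with Cox6b2. All 6 immune markers were lower in YFP-positive cells, with list means of 5.35 to 6.86 in YFP-positive and 9.997 to 10.33 in YFP-negative cells. So were all 6 fibroblast markers, at 7.53 to 8.62 against 9.58 to 10.27, and 6 of 7 markers of pericytes and mural cells, at 5.71 to 6.33 against 6.99 to 7.38. Within the YFP-positive group these lists were highest on array 3 or 4, while Cox6b2 was highest on array 2. Their part in the difference of Cox6b2 was not tested.

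Cox6b1, the ubiquitous form of subunit 6B, had a log2 level of 12.21, 11.89, 11.82 and 11.88 on the YFP-positive arrays, against 11.85, 11.85 and 11.78 on the YFP-negative arrays. YFP-positive array 1 was the highest of all 7, and the groups overlapped. The log2 difference was 0.12 ± 0.10 SE (95% interval -0.12 to 0.36, limma adjusted p = 0.490).

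The other tissue-specific forms did not pass the test. Cox4i2 encodes the alternative form of subunit 4, the largest nuclear subunit, through which ATP regulates the enzyme. Its log2 level was 5.27, 5.32, 5.50 and 5.27 on the YFP-positive arrays, against 5.48, 5.72 and 5.59 on the YFP-negative arrays. YFP-positive array 3 reached into the YFP-negative range, and the difference was -0.26 ± 0.09 SE (95% interval -0.46 to -0.05, limma adjusted p = 0.0915). In the reference annotation Cox4i2 overlaps Bcl2l1, which was at 7.10 to 7.36 in YFP-positive and at 7.02, 7.53 and 9.18 on the YFP-negative arrays. On YFP-negative array 3, where Bcl2l1 was highest, Cox4i2 was at 5.59. The part of Bcl2l1 RNA in the level of Cox4i2 was not tested.

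Cox4i1, the ubiquitous form of subunit 4, had a log2 level of 10.31, 10.50, 10.50 and 10.44 on the YFP-positive arrays, against 10.57, 10.72 and 10.42 on the YFP-negative arrays. These ranges overlapped (log2 difference -0.13 ± 0.09 SE, 95% interval -0.34 to 0.08, limma adjusted p = 0.399).

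Cox6a2, the muscle form of subunit 6A, had a log2 level of 6.61, 6.75, 6.75 and 6.53 on the YFP-positive arrays, against 6.75, 6.75 and 7.47 on the YFP-negative arrays. On 4 arrays, 2 of each group, the deposited value was the same to 6 decimals, and YFP-negative array 3 stood above the rest. That array also had the highest mean of the 2 measured erythroid markers, 11.41, against 6.46 and 9.33 on YFP-negative arrays 1 and 2 and 5.62 to 6.04 on the YFP-positive arrays. The part of red cells in the Cox6a2 value was not tested. The log2 difference was -0.33 ± 0.18 SE (95% interval -0.77 to 0.10, limma adjusted p = 0.289), and it was -0.09 without YFP-negative array 3.

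Cox6a1, the ubiquitous form of subunit 6A, had a log2 level of 11.93, 11.82, 11.91 and 11.97 on the YFP-positive arrays, against 11.95, 12.01 and 12.02 on the YFP-negative arrays. The groups overlapped, with a log2 difference of -0.09 ± 0.06 SE (95% interval -0.22 to 0.05, limma adjusted p = 0.387).

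Cox7a1, the muscle form of subunit 7A, had a log2 level of 6.14, 6.21, 6.36 and 6.55 on YFP-positive arrays 1 to 4, against 6.06, 6.23 and 6.23 on the YFP-negative arrays. The highest values were those of YFP-positive arrays 3 and 4, and the groups overlapped. These arrays had the higher smooth muscle and epithelial markers within their group. On the YFP-negative arrays the smooth muscle mean was higher still, 9.51 to 10.05 against 8.93 and 9.31, while Cox7a1 was lower. The epithelial mean of arrays 3 and 4, 8.15 and 8.37, lay above the 7.93 to 7.999 of the YFP-negative arrays. The part of smooth muscle or epithelial RNA in these values was not tested. The log2 difference was 0.14 ± 0.11 SE (95% interval -0.12 to 0.40, limma adjusted p = 0.446). Without arrays 3 and 4 it was 0.0035 ± 0.08 SE.

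Cox7a2, the ubiquitous form of subunit 7A, had a log2 level of 10.08, 10.06, 10.003 and 9.99 on the YFP-positive arrays, against 10.06, 10.01 and 9.89 on the YFP-negative arrays. The groups overlapped (log2 difference 0.04 ± 0.06 SE, 95% interval -0.10 to 0.19, limma adjusted p = 0.694).

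The 5 ubiquitous forms therefore bounded any group difference closely. For all 5 the 95% interval lay within a 1.5-fold change in either direction, as it did for 13630 of the 19938 tested genes. Among the tissue-specific forms this held for Cox4i2 and Cox7a1, and the interval of Cox6a2 ran from 0.587 to 1.07 times the YFP-negative level.

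**Figure D2:**
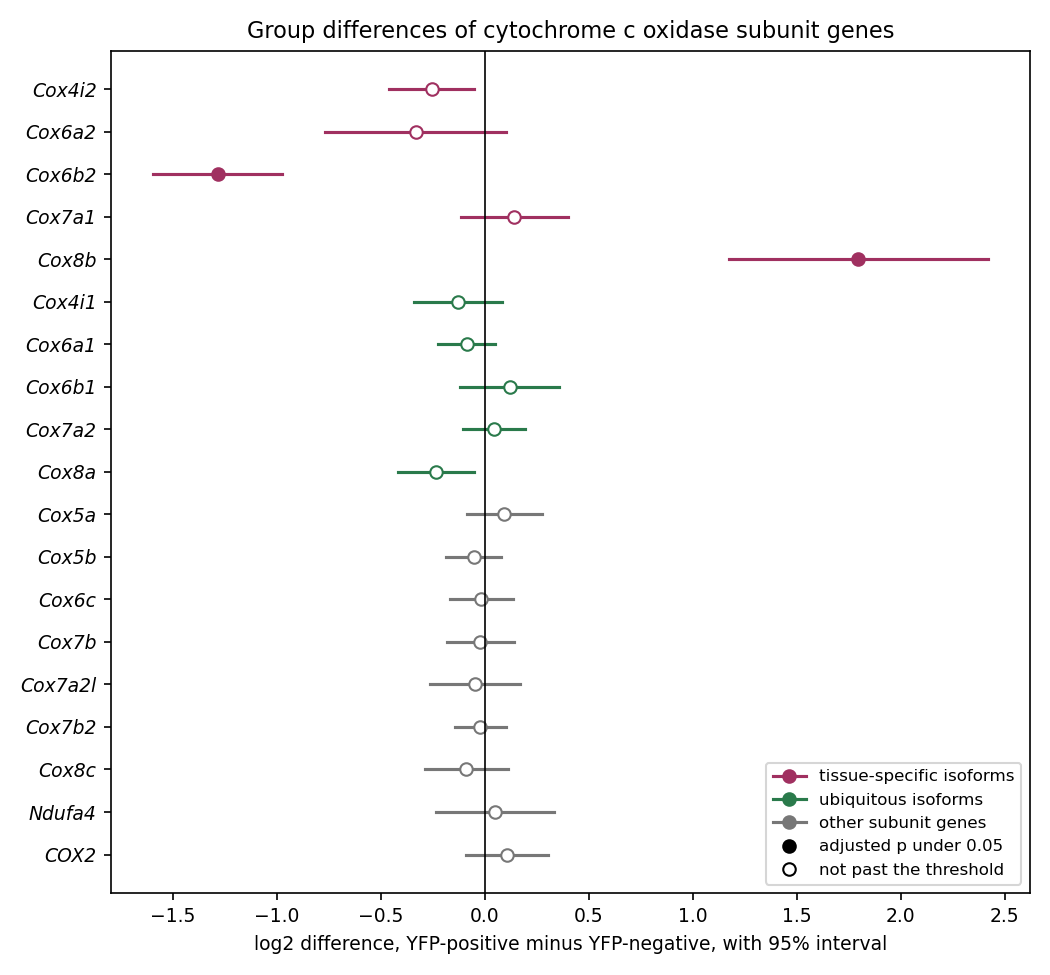
Log2 difference, YFP-positive minus YFP-negative, with the 95% interval of the limma fit, for the tissue-specific forms, the ubiquitous forms and the other subunit genes. Filled points passed an adjusted p under 0.05: Cox8b at 1.80 and Cox6b2 at -1.28.

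Each tissue-specific form was then compared with its ubiquitous partner on the same array. The log2 difference between the 2 genes has no meaning as a ratio of transcripts, since probe sets differ in response, but a shift of it between the groups shows unequal change. For Cox8b minus Cox8a the values were -3.56, -3.19, -3.13 and -4.19 on the YFP-positive arrays, against -5.50, -5.59 and -5.57 on the YFP-negative arrays. The groups did not overlap, and the balance moved towards Cox8b in YFP-positive cells by 2.03 ± 0.29 SE, or 4.09-fold (95% interval 1.29 to 2.77). For Cox6b2 minus Cox6b1 the values were -5.33, -4.55, -4.90 and -4.93, against -3.49, -3.43 and -3.65. This balance moved away from Cox6b2 in YFP-positive cells, by -1.40 ± 0.19 SE (95% interval -1.91 to -0.90), also without overlap.

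In the other 3 pairs the groups overlapped. The shift was -0.13 ± 0.08 SE for Cox4i2 minus Cox4i1 (95% interval -0.34 to 0.09), -0.25 ± 0.21 SE for Cox6a2 minus Cox6a1 (95% interval -0.79 to 0.30) and 0.10 ± 0.16 SE for Cox7a1 minus Cox7a2 (95% interval -0.30 to 0.50). A two-sided exact permutation test over the 35 ways to split the arrays gave p = 0.0286 for the Cox8b and the Cox6b2 pair, the smallest value it can give, and 0.257, 0.314 and 0.571 for the pairs of Cox4i2, Cox6a2 and Cox7a1. Adjusted over the 5 pairs by the Benjamini-Hochberg method these exact p-values were 0.0714, 0.0714, 0.393, 0.393 and 0.571, so no pair passed 0.05. With only the Cox8b and Cox6b2 pairs at the smallest possible p, their adjusted value cannot be below 0.0714, so the adjusted test could not pass them.

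Between the muscle forms, Cox8b minus Cox6a2 was higher in YFP-positive cells by 2.13 ± 0.35 SE (95% interval 1.23 to 3.03, exact permutation p = 0.0286, 0.0571 adjusted over these 2 comparisons). Cox8b minus Cox7a1 was higher by 1.66 ± 0.40 SE (95% interval 0.63 to 2.68, exact permutation p = 0.0571, 0.0571 adjusted). The groups did not overlap in either comparison, which were added after the values had been seen.

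**Figure D3:**
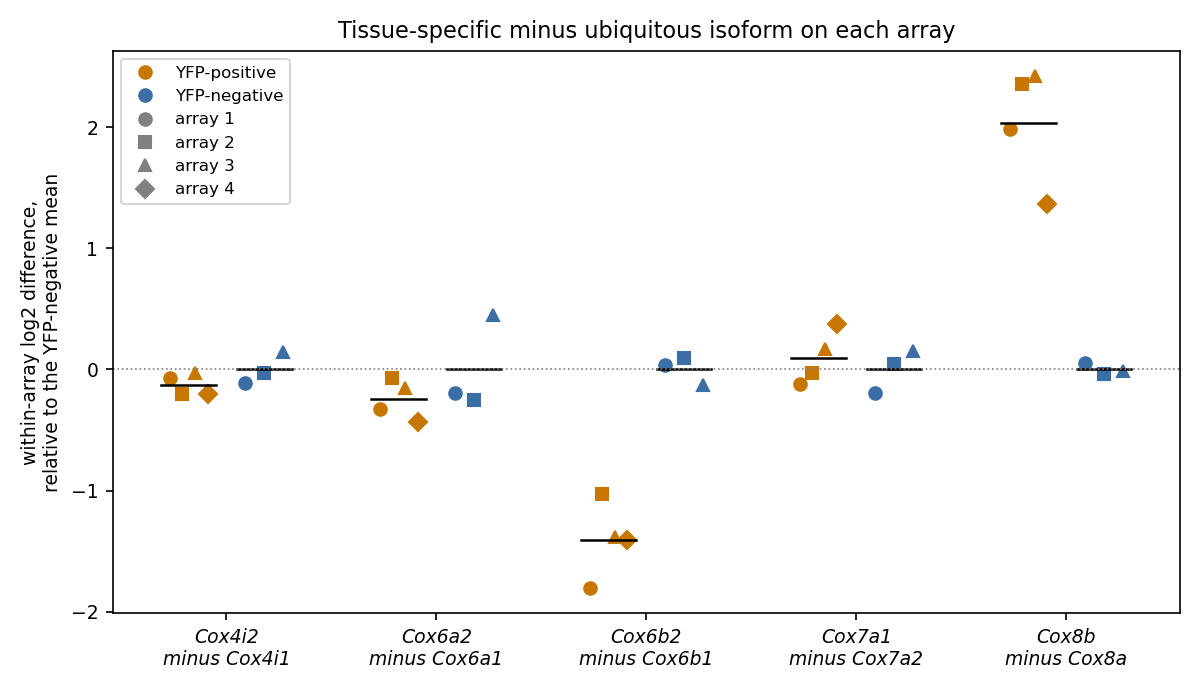
Log2 difference between the tissue-specific and the ubiquitous form on each array, set to 0 at the mean of the YFP-negative arrays, with bars at the group means. The YFP-positive mean lies at 2.03 for the Cox8b pair and at -1.40 for the Cox6b2 pair, and within 0.25 of 0 for the other pairs.

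No other measured subunit gene of the enzyme passed the test. Of 12 further subunit genes listed, 9 were measured, and 0 were higher and 0 lower by limma, with 0 at an unadjusted p under 0.05. Their log2 differences ran from -0.09 for Cox8c, a testis form of subunit 8, to 0.11 for COX2, the mitochondrially encoded copper-binding subunit. Cox5a (0.10 ± 0.08 SE) and Cox5b (-0.05 ± 0.06 SE), the matrix-side subunits, lay between these. So did Cox6c (-0.02 ± 0.06 SE), Cox7b (-0.02 ± 0.07 SE) and Ndufa4 (0.05 ± 0.12 SE), which was first assigned to complex I. Cox7a2l, a relative of Cox7a2 that joins complexes III and IV, had -0.05 ± 0.09 SE. Cox7b2, a testis form of subunit 7B, stayed between 3.12 and 3.22 on all arrays, and Cox8c between 3.90 and 4.25. Both lay far below the array medians, where a difference may not be detectable.

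Across the respiratory chain few genes differed. Of 89 measured subunit and assembly genes of complexes I to V, the isoform pairs left out, 1 was higher and 2 were lower in YFP-positive cells, or 3.37%, beside 17.5% of all genes. Their median log2 difference was -0.02, and the 95% interval of all 89 lay within a 1.5-fold change. Cox20, an assembly factor that handles the subunit COX2, was higher by 0.37 ± 0.09 SE (limma adjusted p = 0.0287). Ndufa3 of complex I (-0.34 ± 0.07 SE, limma adjusted p = 0.0179) and Uqcr10 of complex III (-0.33 ± 0.07 SE, limma adjusted p = 0.0175) were lower. The calls of Ndufa3 and Uqcr10 were lost without YFP-negative array 1 or 2 (adjusted p of up to 0.0610 and 0.0676). That of Cox20 was lost in 4 of the 7 fits that left out 1 array, those without YFP-positive 1, YFP-positive 3, YFP-negative 2 and YFP-negative 3 (adjusted p of up to 0.102). Without YFP-negative array 3 the number of lower genes was 6.

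The 14 other isoform genes of mitochondrial energy transfer included carriers, cytochrome c and creatine kinases. Of these 0 were lower and 1 was higher in YFP-positive cells, or 7.14% beside 17.5% of all genes. This was Ckb, the cytosolic brain-type creatine kinase gene, at 0.33 ± 0.09 SE (limma adjusted p = 0.0401), a call lost in the test against a 1.2-fold change and in 5 of the 7 fits that left out 1 array (kept without YFP-positive 4 and without YFP-negative 1, adjusted p of up to 0.0983).

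Of 20 measured regulators of mitochondrial, oxygen-dependent and muscle transcription, 2 were higher and 4 were lower in YFP-positive cells, with a median log2 difference of -0.0037. In either direction that is 30%, beside 17.5% of all genes. Mef2c, a factor of muscle and neurons, was higher by 0.73 ± 0.13 SE (limma adjusted p = 0.00732), and so was Cxxc5, known in human cells as a repressor of COX4I2 (0.48 ± 0.13 SE, limma adjusted p = 0.0430). The call of Cxxc5 was lost in all fits that left out 1 array but that without YFP-positive array 4 (adjusted p of up to 0.138). Myocd, the smooth muscle coactivator (-1.66 ± 0.34 SE, limma adjusted p = 0.0162), Epas1, the oxygen-regulated factor HIF-2 alpha (-1.24 ± 0.22 SE, limma adjusted p = 0.00809), and Ppargc1a, the coactivator of mitochondrial biogenesis (-0.70 ± 0.13 SE, limma adjusted p = 0.0114), were lower. The other lower gene, named after its value was seen, was Mef2a, a relative of Mef2c (-0.36 ± 0.09 SE, limma adjusted p = 0.0384). Its call was lost in 6 of the 7 fits that left out 1 array, kept only when YFP-positive array 4 was omitted, and its adjusted p reached 0.126. For Myocd the call was lost without YFP-positive array 2 or any 1 YFP-negative array (adjusted p of up to 0.0710). Myocd and Epas1 were highest on arrays 3 and 4 within the YFP-positive group, as were the smooth muscle markers, 4 of 8 of which were lower in YFP-positive cells with list means of 7.72 to 9.31 against 9.51 to 10.05. The part of smooth muscle RNA in these values was not tested.

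**Figure D4:**
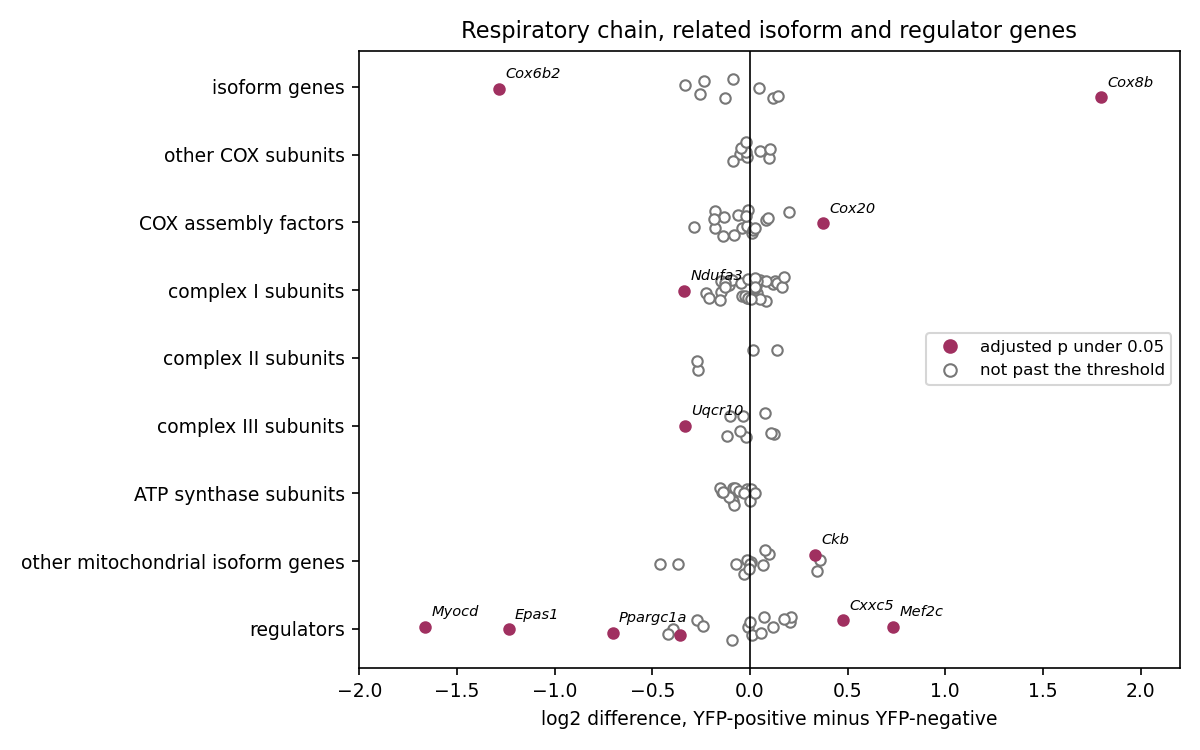
Log2 difference, YFP-positive minus YFP-negative, of each measured gene of the lists named on the left, 1 point a gene, spread vertically for legibility. Filled points passed an adjusted p under 0.05, 2 of 10 among the isoform genes, 3 of 89 over the respiratory chain lists, 1 of 14 in the other isoform list and 6 of 20 among the regulators.

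The genes with the profiles most like those of the 2 isoform genes with the largest differences were found by the root mean square distance over the 7 arrays, each profile taken relative to its own mean. For Cox8b they were Lrp11 (0.20 log2 units), Syt4 (0.20), Aldoc (0.21), Htr2b (0.21) and S100a16 (0.22). All 5 were higher in YFP-positive cells, by 1.64 to 1.89, and all 5 were lowest on array 4 within that group. For Cox6b2 they were Cmtm7 (0.11 log2 units), Olfml2b (0.14), Pold4 (0.14), Ifnar2 (0.15) and Mrc2 (0.15), all lower in YFP-positive cells with log2 differences from -1.10 to -1.30. All these genes were picked for likeness over the same 7 arrays. Their direction, size and order of arrays, the low array 4 included, therefore follow largely from the choice. The likeness rests mainly on the gap between the groups, which the 7 arrays share.

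The nearest annotated protein-coding neighbours of the 2 genes that passed did not pass. Psmd13, beside Cox8b, had a log2 difference of 0.18 ± 0.15 SE (limma adjusted p = 0.478). Kmt5c and Fam71e2, on either side of Cox6b2, had differences of -0.25 ± 0.11 SE and -0.12 ± 0.06 SE (limma adjusted p = 0.163 and 0.255). These neighbours were chosen after the values of the isoform genes had been seen.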

How the data were processed

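The deposited log2 expression values were used. The submitters' processing notes name RMA and the Affymetrix Expression Console as the authors' tools. For their versions, and for whether the 7 arrays were normalized together, the answer was not given in the sources used here. The labels' protocols describe whole-transcriptome amplification of little RNA. This step and quantile scaling can compress differences, and no detection calls came with the values. Of 35556 probe sets 21789 had 1 gene symbol in the platform annotation, and 19938 genes were tested, with the probe set of the highest mean for the 999 genes with several. Sample columns were matched by name (0 unmatched). COX2 was listed by its mitochondrial gene identifier.

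The members, lists and tests were chosen with earlier results of these data known. The group difference was fitted with lmFit and eBayes in limma 3.58.1 in R 4.3.3, group as the only term, with Benjamini-Hochberg adjustment over all genes and a threshold of 0.05. The fit was tested on simulated data. Pairs were tested by exact permutation in scipy 1.17.1 with Python 3.11.15, and their intervals use the pooled SD. Named outside the family are up to 3 genes per list and direction, the 5 of closest profile for each of 2 members, and genes said to be chosen after their values were seen. Tnnt2, Actc1, Ttn, Ckm, Myog and Ucp1 were picked from the marker lists after their values were seen. Replicate numbers were checked for pairing by the correlation of deviations from group means, which was 0.01, -0.09 and 0.04 for numbers 1 to 3, so the numbers were not treated as pairs. Precision is limited by the number of arrays.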

Additional observations from a re-analysis of the deposited data

Results flagged for a closer look

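In the 4 YFP-positive arrays, 6 of 24 genes and gene pairs examined had 1 array far from the rest by Dixon's gap ratio, where chance gives about 1 in 20. Array 1 was high for Cox6b1 (12.21), Cox5a (10.23) and Ndufa4 (11.48), array 2 was high for Cox6b2 (7.33), and array 4 was low for Cox7b2 (3.12) and Cox8c (3.90). The gaps were small in size: the whole range of the group was 0.39 for Cox6b1, 0.45 for Cox6b2, 0.23 for Cox5a, 0.44 for Ndufa4, 0.10 for Cox7b2 and 0.26 for Cox8c, in log2 units. For Cox8c and for Cox7b2, 4 of the 7 arrays had the same value to 6 decimals, and for Cox5a 2 did. Equal values can raise the gap ratio, so the rate of 1 in 20 may not hold for these genes. Without YFP-positive array 2 the difference of Cox6b2 was -1.39 (limma adjusted p = 8.05e-04).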

How the results depend on the processing

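The higher level of Cox8b and the lower level of Cox6b2 kept their direction and passed under moderation with trend and robust options, array medians set equal, a second quantile normalization, genes with the lowest mean levels left out, a test against a 1.2-fold change, the replicate block and the omission of any 1 array. Over single omissions the log2 difference ran from 1.67 to 2.04 for Cox8b (limma adjusted p of up to 0.0223) and from -1.39 to -1.22 for Cox6b2 (limma adjusted p of up to 0.00686). Without YFP-positive arrays 3 and 4 they were 2.02 and -1.20. With the replicate number as a block the log2 difference was 2.04 for Cox8b and -1.26 for Cox6b2, and the block, fitted although the numbers do not pair the samples, changed no call of a member. Under the block 0 of the 89 respiratory chain genes and 0 of the 14 other isoform genes were called, and 0 of 20 regulators were higher and 4 lower, with Mef2c at 0.74 (limma adjusted p = 0.0624). In the test against 1.2-fold, 0 of the 89 and 0 of the 14 were called, and 1 regulator was higher and 2 were lower. The Cox7a1 minus Cox7a2 shift, which did not pass, became -0.0108 after a second quantile normalization and -0.0772 without YFP-positive arrays 3 and 4. The log2 difference of Cox7a2 ran from -0.0040 to 0.083 over single omissions, below 0 only without YFP-negative array 3. The second quantile normalization moved the bright ubiquitous forms upward, Cox7a2 to 0.19 and Cox8a to -0.11, and no call of a member changed. Under it the higher genes among the 14 other mitochondrial isoform genes were 3 in place of 1 (Ckb with Cycs and Slc25a4, named after their values were seen), while the lower genes were 1 in place of 2 in the respiratory chain and 3 in place of 4 among the regulators. With fewer arrays the permutation test of a pair cannot pass after adjustment. Averaging probe sets leaves each member as it is. Over all genes 3489 were called, 1958 in the test against 1.2-fold, and the lower genes were 1817, or 1166 without YFP-negative array 2.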
